A study of Arabidopsis thaliana with 6 samples.

Results

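The genes described here encode the spliceosome and the serine/arginine-rich (SR) splicing factors of Arabidopsis thaliana. They were chosen by a word match in the gene descriptions of the deposited count table, which looked for splicing factor, serine/arginine-rich, small nuclear ribonucleoprotein or a word beginning with spliceosom, and it found 165 of 38192 genes. Transcripts were sequenced in the aerial parts of seedlings of 2 genotypes: cpl2-2, labelled a CPL2 knock out, and WT, the accession Col. Each genotype had 3 libraries, called biological replicates in the design text, and all plants were 9 days old and grown at 23 ± 2 °C in 16 h light and 8 h dark. CPL2 belongs to a group of plant phosphatases known to dephosphorylate the tail of RNA polymerase II, and the comparison asks which transcripts differ in the mutant. The labels name 1 mutant allele, and a complemented line was not analysed here.

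The spliceosome removes introns from nuclear pre-mRNA. It is built for each intron from the U1, U2, U4/U6 and U5 small nuclear ribonucleoproteins (snRNPs), in which an RNA sits in a ring of Sm proteins (LSm proteins for U6) and carries proteins of its own. SR proteins bind pre-mRNA through RNA recognition motifs and, through their arginine/serine-rich region, help to choose splice sites. Many SR genes of Arabidopsis are themselves alternatively spliced, in patterns that change with light and temperature. The values below are reads summed over each gene, so they give the total transcript and not its isoforms.

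Library totals were 18299294, 20653008 and 20129793 counts in cpl2-2 and 20756428, 20905810 and 21098728 in WT. Levels are CPM, counts divided by a library total that edgeR's TMM factors adjust for composition. A gene was called where edgeR's quasi-likelihood F test of cpl2-2 over WT gave a Benjamini-Hochberg adjusted p under 0.05 over all 19302 genes tested, and adjusted p-values of genes below are from that test unless another is named. CPL2 itself averaged 10.7 ± 0.15 CPM in cpl2-2 and 19.0 ± 0.47 CPM in WT (SD, n = 3 each; log2 fold change -0.82, SE 0.10, adjusted p = 6.0e-09). Counts over the whole gene thus stood at 56.6% of WT, and they do not show which part of the transcript remains in the mutant. Among marker genes of the harvested tissue, the leaf genes RBCS1A, LHCB1.2 and LHCA1 were called lower (3 of 4 in the list, with a summed level of 23814 to 25106 CPM in cpl2-2 and 31225 to 32378 CPM in WT). Of 6 meristem and dividing-cell genes 4 were tested, with 2 estimates above 0 and 2 below. STM, a shoot meristem gene, was called higher and 0 were called lower, though 2 had all cpl2-2 libraries below all WT libraries. The 6 genes summed to 22.1 to 24.2 CPM in cpl2-2 and 21.4 to 23.6 CPM in WT. Of 5 root genes, RHD6 and PLT1 were at 0 in every library, and 2 were tested. CASP1 was called higher at about 1 CPM, and the other tested root gene, at a log2 fold change of -0.14, was not called. The 5 root genes summed to 1.71 to 2.28 CPM in cpl2-2 and 1.12 to 1.73 CPM in WT. The part of these differences in the results below was not tested, and in such bulk tissue fewer cells of a type and less RNA per cell cannot be told apart.

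Of the 165 genes, 151 had a count in some library and 137 had enough for the test. Of these 137, 27 were called (19.7%), 16 higher and 11 lower in cpl2-2. Over all genes tested 27.3% were called, 14.1% higher and 13.3% lower, and at a mean level of 10 CPM or more the shares were 24 of 112 spliceosome and SR genes (21.4%, 13 higher and 11 lower) and 35.2% of all (15.9% higher and 19.2% lower). The libraries of the genotypes did not overlap for 23 of the 137 on the higher side and 22 on the lower, against 39.0% of all genes in either direction. Most differences were small. The log2 fold change lay within 0.2 of 0 for 102 of the 137, and its median absolute size was 0.12, against 0.17 for all genes tested. The signed median was -0.01 for the 137 and -0.002 for all genes. Of the 27 called genes 2, GFL and AT4G16680, reached 2-fold, where 3.57% of all genes tested were called with such a fold. Both entered the test through their cpl2-2 libraries alone, so their folds support nothing about the group. The split of the calls depended on the scaling. Scaling to plain library totals, which moved the median of all genes to 0.07, gave 24 called higher and 7 lower. Of all 19302 genes tested, that scaling called 3952 higher and 1666 lower, where TMM called 2717 and 2560.

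**Figure D1:**
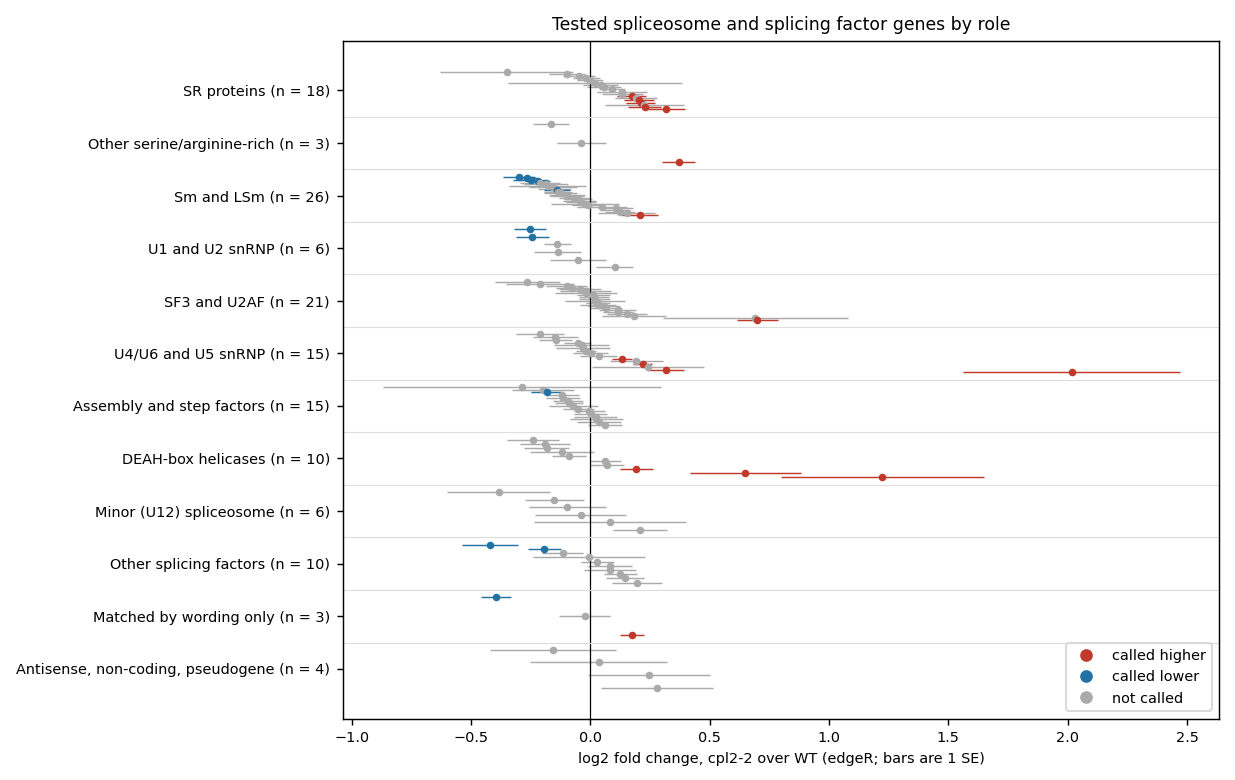
Log2 fold change of cpl2-2 over WT for the 137 tested genes, grouped by role, with bars of 1 SE; colour marks the edgeR call. Calls among SR proteins and U4/U6 and U5 snRNP proteins lie right of 0 and most among Sm and LSm proteins left of it, and GFL (log2 fold change 2.02), which entered the test through its cpl2-2 libraries alone, lies farthest out.

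Roles were assigned from the descriptions and RefSeq products. The shares called by role are read against the 27.3% of all genes tested that were called (14.1% higher and 13.3% lower), and most lay near or below it. The 18 SR protein genes had 5 calls (27.8%), all higher. The 26 Sm and LSm genes had 1 higher and 5 lower (23.1% in all), and the 6 genes of U1 and U2 snRNP proteins had 2, both lower. Genes of U4/U6 and U5 snRNP proteins had 4 calls among 15 tested (26.7%), all higher, and DEAH-box helicases 3 among 10 tested, all higher. These calls include GFL and AT4G16680, which entered the test through their cpl2-2 libraries alone and support nothing about their classes. In the SF3 and U2AF group 1 of 21 tested was called, and among the assembly and step factors 1 of 15. For the minor spliceosome edgeR made 0 calls among 6 tested genes, as did DESeq2 and limma-voom, and 0 of the 6 had an unadjusted p below 0.05. With library totals the calls were 7 higher and 0 lower for SR proteins, 3 higher and 4 lower for Sm and LSm proteins, 0 higher and 1 lower for U1 and U2 and 4 higher and 0 lower for U4/U6 and U5. Of all 19302 genes tested, 3952 were then called higher and 1666 lower.

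Before the levels by role, the upstream sequence of 4 called genes is shown, chosen among called genes whose window holds the element described here and no other annotated gene, because genes called in opposite directions carry it. The element is site II (TGGGCC on either strand), a motif common upstream of Arabidopsis housekeeping genes of growing tissue. It stood within 250 bases before the annotated gene start in 63 of the 130 tested protein-coding genes matched by their product (48.5%), against 17.1% of the 19245 tested protein-coding genes of the genome. Matches were counted on both strands and may overlap. Capitals mark site II in the windows below, each 250 bases ending 1 base before the gene start and written 5′ to 3′ on the gene's strand, from RefSeq TAIR10.1. The first pair of genes was called higher in cpl2-2 and the second pair lower. The window of RSZ22a lies at chr2:10449381-10449630, that of SCL30 at chr3:20560552-20560801, that of SNRNP-G at chr2:10182001-10182250 and that of SMD3A at chr1:28625621-28625870, all on the plus strand.
RSZ22a: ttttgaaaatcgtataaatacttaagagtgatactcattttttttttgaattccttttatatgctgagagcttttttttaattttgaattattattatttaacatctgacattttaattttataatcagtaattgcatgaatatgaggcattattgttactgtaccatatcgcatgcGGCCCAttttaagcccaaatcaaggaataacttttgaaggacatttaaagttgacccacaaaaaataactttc
SCL30: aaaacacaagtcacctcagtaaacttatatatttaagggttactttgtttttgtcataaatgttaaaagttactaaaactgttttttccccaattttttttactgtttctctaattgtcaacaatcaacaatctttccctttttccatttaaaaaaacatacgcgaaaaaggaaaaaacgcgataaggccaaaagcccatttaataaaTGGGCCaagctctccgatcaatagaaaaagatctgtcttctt
SNRNP-G: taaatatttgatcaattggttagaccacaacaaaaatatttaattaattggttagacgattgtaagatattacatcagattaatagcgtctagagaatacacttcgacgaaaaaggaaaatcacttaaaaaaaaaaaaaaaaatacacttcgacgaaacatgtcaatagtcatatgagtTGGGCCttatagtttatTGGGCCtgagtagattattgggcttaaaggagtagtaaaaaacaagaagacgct
SMD3A: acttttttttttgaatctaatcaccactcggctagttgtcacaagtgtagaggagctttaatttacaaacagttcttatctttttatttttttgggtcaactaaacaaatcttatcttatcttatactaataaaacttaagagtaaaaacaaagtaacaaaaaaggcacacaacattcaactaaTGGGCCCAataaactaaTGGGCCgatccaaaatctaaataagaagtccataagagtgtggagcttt

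The match nearest to the gene start lay 73 bases before it in RSZ22a, 42 in SCL30, 54 in SNRNP-G and 49 in SMD3A. SNRNP-G held 2 matches and SMD3A 3. The element was present in 9 of 18 SR protein genes and in 12 of 26 Sm and LSm genes, in 10 of the 15 product-matched genes called higher and in 5 of the 10 called lower, so it stood upstream of genes called in either direction. The 15 include GFL, with 2 matches, and AT4G16680, with 0, which both entered the test through their cpl2-2 libraries alone. Other motifs were rarer. The telo box (AAACCCTA) was in 4.62% of the 130 windows and 3.72% of all windows, the heat shock element core (GAANNTTC) in 5.38% and 9.31%, and the G box (CACGTG) in 3.08% and 7.27%. These are matches of letters in a fixed window, not measured binding.

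The summed level of the SR protein genes was slightly higher in cpl2-2. The share of them called, 27.8%, was near the 27.3% of all genes (14.1% higher and 13.3% lower). The median SR gene stood at 32.9 CPM, against 13.3 CPM for all genes tested. At a mean of 10 CPM or more 35.2% of all genes were called, 15.9% higher and 19.2% lower. All 18 SR genes had enough counts for the test, 13 had a positive log2 fold change, and 5 were called higher and 0 lower by edgeR, by DESeq2 and by limma-voom, with 6 higher and 0 lower at an unadjusted p under 0.05. Without WT replicate 2 the count of calls was 2, and without WT replicate 3, cpl2-2 replicate 1 or cpl2-2 replicate 3 it was 3. The median log2 fold change was 0.11, against -0.002 for all genes tested. Their summed level was 624, 608 and 632 CPM in cpl2-2, against 579, 571 and 589.6 CPM in WT. Every cpl2-2 library lay above every WT library. By subfamily the sums of RSZ, RS2Z and SCL genes were apart in the same way, and those of SR, SC and RS genes overlapped between the genotypes. With library totals the median was 0.18, and that of all genes 0.07.

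**Figure D2:**
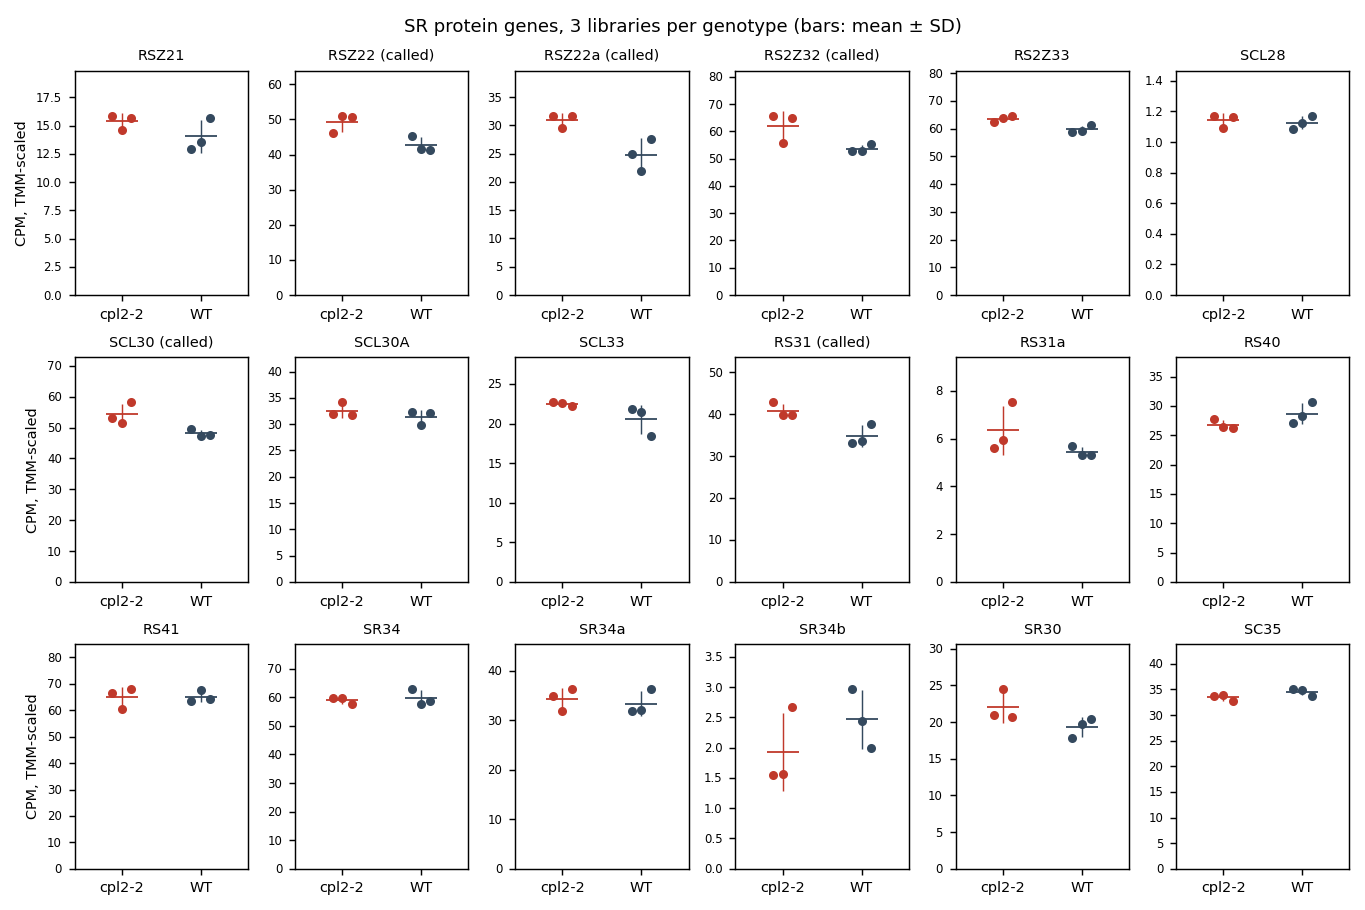
TMM-scaled CPM of the 18 SR protein genes, with a point per library, mean ± SD, cpl2-2 left of WT and every axis starting at 0. RSZ22, RSZ22a, RS2Z32, SCL30 and RS31 are the 5 called genes, each with all cpl2-2 points above all WT points.

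Calls fell in 4 of the 6 SR subfamilies. Of the RSZ subfamily, whose members carry a zinc knuckle, 2 of 3 were called. RSZ22a (AT2G24590, chromosome 2, 10449631 to 10451184, plus strand) had 31.7, 29.5 and 31.6 CPM in cpl2-2, against 24.9, 21.9 and 27.6 CPM in WT. Its genotypes did not overlap, and the call held in every setting tried (log2 fold change 0.32, SE 0.08, adjusted p = 0.0017). RSZ22 (AT4G31580), the closest copy of RSZ22a with 84.8% identical coding bases, had 46.0, 51.1 and 50.6 CPM in cpl2-2, against 45.3, 41.7 and 41.4 CPM in WT (0.20, SE 0.06, adjusted p = 0.013). The lowest cpl2-2 library stood just above the highest WT library. Without WT replicate 2 or 3, or cpl2-2 replicate 2 or 3, RSZ22 missed the threshold (adjusted p = 0.067, 0.069, 0.057 and 0.054). RSZ21 was not called (15.4 ± 0.70 CPM in cpl2-2 and 14.0 ± 1.46 CPM in WT).

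The plant-specific RS2Z subfamily has paired zinc knuckles. RS2Z32 (AT3G53500) had 65.8, 55.9 and 64.8 CPM in cpl2-2, against 52.8, 52.9 and 55.3 CPM in WT (log2 fold change 0.21, SE 0.06, adjusted p = 0.0061). Its cpl2-2 replicate 2 came within 1 CPM of the highest WT library, and without cpl2-2 replicate 1 the call was lost (adjusted p = 0.068). RS2Z33 averaged 63.6 ± 1.21 CPM in cpl2-2 and 59.8 ± 1.28 CPM in WT and was not called (0.09, SE 0.05, adjusted p = 0.24), except with library totals (adjusted p = 0.025). Each of the RS2Z genes shares bases with a gene annotated on the other strand. The sources used here do not say whether reads were counted by strand, so part of their counts could come from that partner.

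In the RS subfamily, which has 2 RNA recognition motifs, RS31 (AT3G61860, chromosome 3, 22900050 to 22902395, minus strand) had 42.8, 39.7 and 39.7 CPM in cpl2-2, against 33.1, 33.6 and 37.7 CPM in WT (log2 fold change 0.23, SE 0.07, adjusted p = 0.0092). The genotypes did not overlap, but without WT replicate 1 or 2 or cpl2-2 replicate 1 the adjusted p was 0.072, 0.060 and 0.069. Its copy RS31a had the same log2 fold change with a wider error (0.23, SE 0.17, adjusted p = 0.34), and RS40 and RS41 were at -0.10 (SE 0.08) and -0.00 (SE 0.06). In the SC35-like SCL subfamily, SCL30 (AT3G55460, chromosome 3, 20560802 to 20563885, plus strand) had 53.2, 51.4 and 58.2 CPM in cpl2-2, against 49.5, 47.4 and 47.6 CPM in WT (0.17, SE 0.06, adjusted p = 0.029). All cpl2-2 libraries were above all WT libraries. The SCL30 call was lost without WT replicate 2 or 3 or cpl2-2 replicate 3 (adjusted p = 0.097, 0.086 and 0.21). SCL28, SCL30A and SCL33 were not called, at 0.02 (SE 0.36), 0.06 (SE 0.07) and 0.13 (SE 0.09).

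The subfamily of SR34, SR34a, SR34b and SR30, relatives of human ASF/SF2, had no call by edgeR, DESeq2 or limma-voom, with 1 of the 4 genes at an unadjusted p under 0.05. SR34 averaged 59.0 ± 1.33 CPM in cpl2-2 and 59.7 ± 2.72 CPM in WT (log2 fold change -0.02, SE 0.06). SR30, a gene whose splicing responds to light and stress, had 20.9, 24.5 and 20.7 CPM in cpl2-2, against 17.8, 19.7 and 20.4 CPM in WT (0.19, SE 0.09, adjusted p = 0.11), and was called with library totals (adjusted p = 0.025). SC35, the orthologue of the human factor of that name, averaged 33.4 ± 0.61 CPM in cpl2-2 and 34.6 ± 0.73 CPM in WT (-0.05, SE 0.07). By level the least expressed SR genes were SCL28 (1.14 ± 0.045 CPM in cpl2-2 and 1.13 ± 0.041 CPM in WT) and SR34b (1.93 ± 0.64 CPM in cpl2-2 and 2.47 ± 0.49 CPM in WT), where the SE of 0.36 and 0.28 leaves sizeable differences undetected.

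Of the SR-like proteins outside these subfamilies, SR45a rose and SR45 was not called. SR45a (AT1G07350, chromosome 1, 2257384 to 2260187, minus strand), known as a stress-responsive splicing regulator, had 38.4, 39.9 and 41.2 CPM in cpl2-2, against 28.8, 31.0 and 32.7 CPM in WT. The groups were apart by more than 5 CPM, and the call held in every setting (log2 fold change 0.37, SE 0.07, adjusted p = 3.1e-05). SR45, which carries arginine/serine-rich regions on both sides of its RNA recognition motif, had 29.8, 27.3 and 28.5 CPM in cpl2-2, against 28.3, 33.2 and 34.4 CPM in WT (-0.16, SE 0.08, adjusted p = 0.11). Those libraries overlapped, and without WT replicate 1 it passed the threshold (adjusted p = 0.022). AT4G35785, the relative of SR45a, was at -0.04 (SE 0.10).

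Phosphorylation of the arginine/serine region regulates SR proteins, and 5 kinases with SR or spliceosomal proteins as substrates, which the description search did not match, were read beside them. PRP4KA averaged 22.8 ± 1.43 CPM in cpl2-2 and 17.5 ± 0.73 CPM in WT (log2 fold change 0.38, SE 0.09, adjusted p = 7.4e-04). SRPK4 averaged 13.9 ± 1.06 CPM in cpl2-2 and 11.3 ± 1.15 CPM in WT (0.30, SE 0.11, adjusted p = 0.040), a call lost with DESeq2 (adjusted p = 0.079) and without cpl2-2 replicate 1 or 2 or WT replicate 2 or 3 (adjusted p = 0.18, 0.053, 0.11 and 0.17). AFC1, AFC2 and AFC3 were at -0.13 (SE 0.11), 0.05 (SE 0.08) and -0.20 (SE 0.12), none of them called.

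Most Sm and LSm genes had estimates below 0, while the share of them called, 23.1%, was below the 27.3% of all genes. Of 26 genes, 20 had a negative log2 fold change, with a median of -0.10, and 5 were called lower and 1 higher. Over all genes tested 13.3% were called lower, and 19.2% of those with a mean of at least 10 CPM. DESeq2 called 4 lower and 0 higher. The summed level was 1070.2, 1097 and 1045 CPM in cpl2-2, against 1159, 1143 and 1146 CPM in WT, so each cpl2-2 library lay below each WT library. With library totals the median was -0.03, and that of all genes 0.07. As a share of library counts the genotypes overlapped, the mean of cpl2-2 being 0.976 times that of WT. The 14 Sm genes carried 4 of the falls and no rise by any of the 3 tools. The 11 LSm genes had 1 call each way, and their summed share of the library counts was 1.02 times that of WT where their summed TMM-scaled level was 0.977 times.

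Per base of gene length, Sm and LSm genes were the most abundant class, with a median of 43.4 CPM per kb against 22.8 for SR proteins and 7.05 for all genes tested. SNRNP-G (AT2G23930, chromosome 2, 10182251 to 10183370, plus strand), which encodes the Sm G protein of the ring, had 113, 121 and 114 CPM in cpl2-2, against 136, 141 and 142 CPM in WT. No library overlapped, and the call held in every setting (log2 fold change -0.27, SE 0.04, adjusted p = 1.3e-06). AT4G30330, for Sm E, had 34.6, 36.5 and 37.3 CPM in cpl2-2, against 43.3, 48.2 and 42.0 CPM in WT (-0.30, SE 0.07, adjusted p = 4.3e-04). AT3G62840, for Sm D2, had 98.8, 95.2 and 86.2 CPM in cpl2-2, against 112, 107 and 107 CPM in WT (-0.22, SE 0.05, adjusted p = 3.3e-04), and overlaps an opposite-strand gene. Both calls held in every setting, and in both genes the genotypes were apart. SMD3A (AT1G76300), for Sm D3, had 28.0, 32.0 and 32.3 CPM in cpl2-2, against 38.4, 34.1 and 37.4 CPM in WT (-0.25, SE 0.07, adjusted p = 0.0062), with the call lost without cpl2-2 replicate 1 (adjusted p = 0.077).

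Each of these 4 Sm genes has a second copy, and none of the 4 copies was called. AT3G11500 (Sm G) was at -0.10 (SE 0.07), PCP (Sm E) at -0.14 (SE 0.06, adjusted p = 0.074), AT2G47640 (Sm D2) at -0.07 (SE 0.06) and SMD3B (Sm D3) at -0.05 (SE 0.06). All 4 estimates were negative, and the share of each copy within its pair overlapped between the genotypes. PCP passed the threshold without WT replicate 3 (adjusted p = 0.0020) or cpl2-2 replicate 3 (0.034) and with no filter on low counts (0.033).

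Among the LSm genes, LSM7 was called higher and LSM3B lower. LSM7 (AT2G03870) had 34.5, 34.6 and 30.1 CPM in cpl2-2, against 28.2, 26.6 and 30.9 CPM in WT (log2 fold change 0.21, SE 0.08, adjusted p = 0.033). Its genotypes overlapped, it shares bases with a same-strand neighbour, and it was not called by DESeq2 (adjusted p = 0.075) or without WT replicate 1 or 2 or cpl2-2 replicate 1 or 2 (adjusted p = 0.10, 0.19, 0.13 and 0.14). LSM3B had 62.3, 71.2 and 64.6 CPM in cpl2-2, against 71.3, 74.3 and 73.0 CPM in WT (-0.14, SE 0.05, adjusted p = 0.047). Its highest cpl2-2 library was next to its lowest WT library, and the call was lost with DESeq2 (adjusted p = 0.078), with library totals (0.34) and in 5 of the 6 leave-outs (0.057 to 0.25). LSM3A, the copy of LSM3B, was not called (-0.13, SE 0.07). LSM8, which places the ring on U6 RNA, just missed (-0.21, SE 0.08, adjusted p = 0.051). Neither called LSm gene kept its call in every setting.

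**Figure D3:**
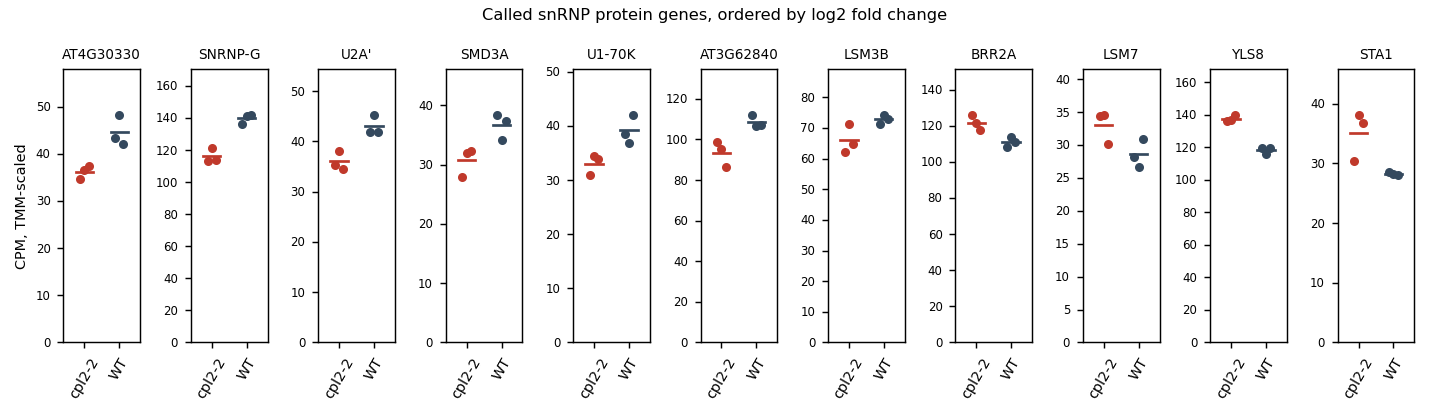
TMM-scaled CPM per library of the 11 called snRNP protein genes with a WT mean of at least 1 CPM, ordered by log2 fold change, with cpl2-2 left of WT and lines at the means. From AT4G30330 to LSM3B the cpl2-2 means lie lower and from BRR2A to STA1 higher; only LSM7 has overlapping genotypes.

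Proteins specific to U1 and U2 snRNPs, which mark the 5′ splice site and the branch point, had 2 calls among 6 genes, both lower. Over all genes tested 27.3% were called, 13.3% lower. U2A' (AT1G09760, chromosome 1, 3159125 to 3161692, minus strand) had 35.4, 38.1 and 34.5 CPM in cpl2-2, against 41.8, 45.3 and 41.9 CPM in WT (log2 fold change -0.25, SE 0.07, adjusted p = 0.0026). It overlaps an opposite-strand gene. U1-70K (AT3G50670), the U1 protein that contacts SR proteins, had 30.9, 34.4 and 33.8 CPM in cpl2-2, against 38.5, 36.9 and 42.0 CPM in WT (-0.24, SE 0.07, adjusted p = 0.0060), with the call lost with library totals (adjusted p = 0.051), without WT replicate 3 (0.075) and without cpl2-2 replicate 1 (0.057). In neither gene did the genotypes overlap. U1A was close to the threshold (66.4 ± 4.94 CPM in cpl2-2 and 73.1 ± 4.16 CPM in WT, adjusted p = 0.060), and passed it with no filter (0.037), without WT replicate 1 (0.024) and without cpl2-2 replicate 3 (0.014).

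GEMIN2, the assembly factor that loads Sm rings onto the RNAs, was lower as well. GEMIN2 (AT1G54380, chromosome 1, 20297805 to 20300979, minus strand) had 8.70, 9.44 and 9.02 CPM in cpl2-2, against 12.7, 12.3 and 11.4 CPM in WT, or 74.6% of the WT mean. The genotypes were well apart and the call held in every setting (log2 fold change -0.42, SE 0.12, adjusted p = 0.0052). AT2G02570, related to the splicing factor SPF30 of vertebrates, averaged 32.1 ± 1.92 CPM in cpl2-2 and 36.7 ± 1.88 CPM in WT (-0.19, SE 0.07, adjusted p = 0.032). That call was lost with DESeq2 (adjusted p = 0.063), with library totals (0.18), without WT replicate 3 (0.18) and without cpl2-2 replicate 3 (0.17).

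Proteins of the U5 snRNP, the core of the catalytic spliceosome, held 4 calls among 10 genes, all higher. Over all genes tested 27.3% were called, 14.1% higher. GFL, among the 4, entered the test through its cpl2-2 libraries alone and supports nothing about the class. The other 6 were not called, and 4 of the 10 estimates were below 0. YLS8 (AT5G08290, chromosome 5, 2665899 to 2667261, plus strand), a thioredoxin-like protein of the Dim1 family, had 136, 137 and 139.8 CPM in cpl2-2, against 119, 116 and 119 CPM in WT. The 3 libraries of each genotype lay within 5 CPM of each other, and the call held in every setting (log2 fold change 0.22, SE 0.04, adjusted p = 2.9e-05). STA1 (AT4G03430), the Prp6-like protein that bridges U5 to U4/U6, had 30.4, 38.1 and 36.7 CPM in cpl2-2, against 28.5, 28.1 and 28.1 CPM in WT (0.32, SE 0.08, adjusted p = 0.0010). The cpl2-2 libraries varied more than the WT libraries, and all were higher. BRR2A, the helicase that unwinds U4 from U6, averaged 122 ± 4.32 CPM in cpl2-2 and 111 ± 2.92 CPM in WT (0.13, SE 0.04, adjusted p = 0.018), and lost its call without WT replicate 1 (adjusted p = 0.11) or cpl2-2 replicate 1 (0.12). PRP8A, which holds the catalytic centre, did not pass the test, at 135 ± 8.26 CPM in cpl2-2 and 136 ± 3.06 CPM in WT (-0.02, SE 0.04). The minor copies BRR2B and PRP8B were at 0.19 (SE 0.11) and 0.24 (SE 0.24), not called. The U4/U6 proteins PRP31, RDM16 and LIS were at 0.00 (SE 0.07), 0.04 (SE 0.08) and -0.04 (SE 0.12).

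The 4th U5 gene, GFL (AT5G25230, chromosome 5, 8739545 to 8743880, plus strand), was called at a very low level. It had enough counts for the test through the cpl2-2 libraries alone, so a gene like it enters the test only if it differs, and its fold supports nothing about the class. GFL is a copy of CLO, which encodes the GTPase of U5, with 96.8% identical coding bases. GFL held 26, 33 and 30 counts in the cpl2-2 libraries, against 4, 13 and 5 in the WT libraries, or 1.39, 1.57 and 1.46 CPM against 0.198, 0.634 and 0.244 CPM. Over the summed counts the ratio was 4.10, with an exact 95% interval of 2.55 to 6.87 that covers counting error only (log2 fold change 2.02, SE 0.45, adjusted p = 4.6e-04). CLO averaged 61.8 ± 4.51 CPM in cpl2-2 and 64.1 ± 1.86 CPM in WT (-0.05, SE 0.06, adjusted p = 0.54). GFL thus made up 2.26%, 2.94% and 2.53% of the pair's counts per base in cpl2-2, against 0.329%, 1.11% and 0.424% in WT. Because the copies are so alike, how the authors' counting divided reads between them is uncertain.

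Of the SF3 and U2AF genes, which recognise the branch point and the 3′ splice site, 1 was called. AT3G23325 (chromosome 3, 8345770 to 8347142, plus strand) encodes a small subunit of SF3B related to human SF3B5. It had 31.6, 27.2 and 27.1 CPM in cpl2-2, against 17.9, 16.3 and 18.7 CPM in WT. The lowest cpl2-2 library was more than 8 CPM above the highest WT library, and the call, the strongest by p among the 137, held in every setting (log2 fold change 0.70, SE 0.09, adjusted p = 5.7e-09). AT3G23325 shares bases on its own strand with the gene of the microRNA miR853 and with AT3G23330, so some counts may be theirs. Its copy AT4G14342, with 86.3% identical coding bases, averaged 34.1 ± 2.75 CPM in cpl2-2 and 33.4 ± 4.16 CPM in WT (0.03, SE 0.08, adjusted p = 0.81). AT3G23325 made up 65.2%, 57.8% and 59.4% of the pair's counts per base in cpl2-2, against 47.3%, 51.1% and 50.0% in WT.

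The other branch-point and 3′ splice-site factors were not called by edgeR. U2AF35A, U2AF35B, U2AF65A and U2AF65B were at 0.06 (SE 0.07), 0.02 (SE 0.06), 0.12 (SE 0.06) and 0.15 (SE 0.08), while with library totals U2AF65A and U2AF65B passed (adjusted p = 0.028 and 0.037). SF1, the branch-point binding protein, was at -0.08 (SE 0.07). ATO, an SF3A subunit, was at -0.04 (SE 0.09), and AT5G64270, an SF3B subunit at 77.6 ± 1.50 CPM in cpl2-2 and 75.9 ± 3.69 CPM in WT, at 0.03 (SE 0.05). AT1G14640 had the second largest estimate of this class (0.69) with an SE of 0.39 and was not called (adjusted p = 0.19). The SAP130 copies are 99.8% identical over their aligned coding bases, so the division of reads between them is uncertain. SAP130a was at 0.18 (SE 0.13) and SAP130b at -0.21 (SE 0.14), neither called.

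DEAH-box helicases drive the spliceosome from step to step, and 3 of 10 tested were called, all higher. Over all genes tested 27.3% were called, 14.1% higher. CUV (AT5G13010), the Prp16 homologue, had 37.2, 37.7 and 40.7 CPM in cpl2-2, against 30.8, 36.0 and 34.4 CPM in WT (log2 fold change 0.19, SE 0.07, adjusted p = 0.034). It was not called by DESeq2 (adjusted p = 0.072) or without WT replicate 1 or 3 or cpl2-2 replicate 3 (0.25, 0.060 and 0.17). MEE29 (AT2G35340) and AT4G16680 are relatives of ESP3, with 84.3% and 73.3% identical aligned coding bases. MEE29 had 4.48, 3.75 and 3.25 CPM in cpl2-2, against 2.72, 1.90 and 2.68 CPM in WT (0.65, SE 0.23, adjusted p = 0.031), and its call was lost with DESeq2 (0.051) and without WT replicate 2, cpl2-2 replicate 1 or cpl2-2 replicate 2 (0.15, 0.15 and 0.056). AT4G16680 had 0.80, 1.52 and 1.46 CPM in cpl2-2, against 0.494, 0.634 and 0.487 CPM in WT (1.22, SE 0.42, adjusted p = 0.026). It rests on 77 counts in cpl2-2 and 33 in WT, entered the test through the cpl2-2 libraries alone, overlaps 2 opposite-strand genes, and was lost in 4 of the 6 leave-outs (adjusted p = 0.082 to 0.12). The fold of AT4G16680 therefore supports nothing about the class. ESP3, more abundant than these 2 relatives, averaged 17.2 ± 1.72 CPM in cpl2-2 and 19.5 ± 1.37 CPM in WT (-0.18, SE 0.10, adjusted p = 0.16), so its estimate lay on the other side of 0 from that of MEE29.

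**Figure D4:**
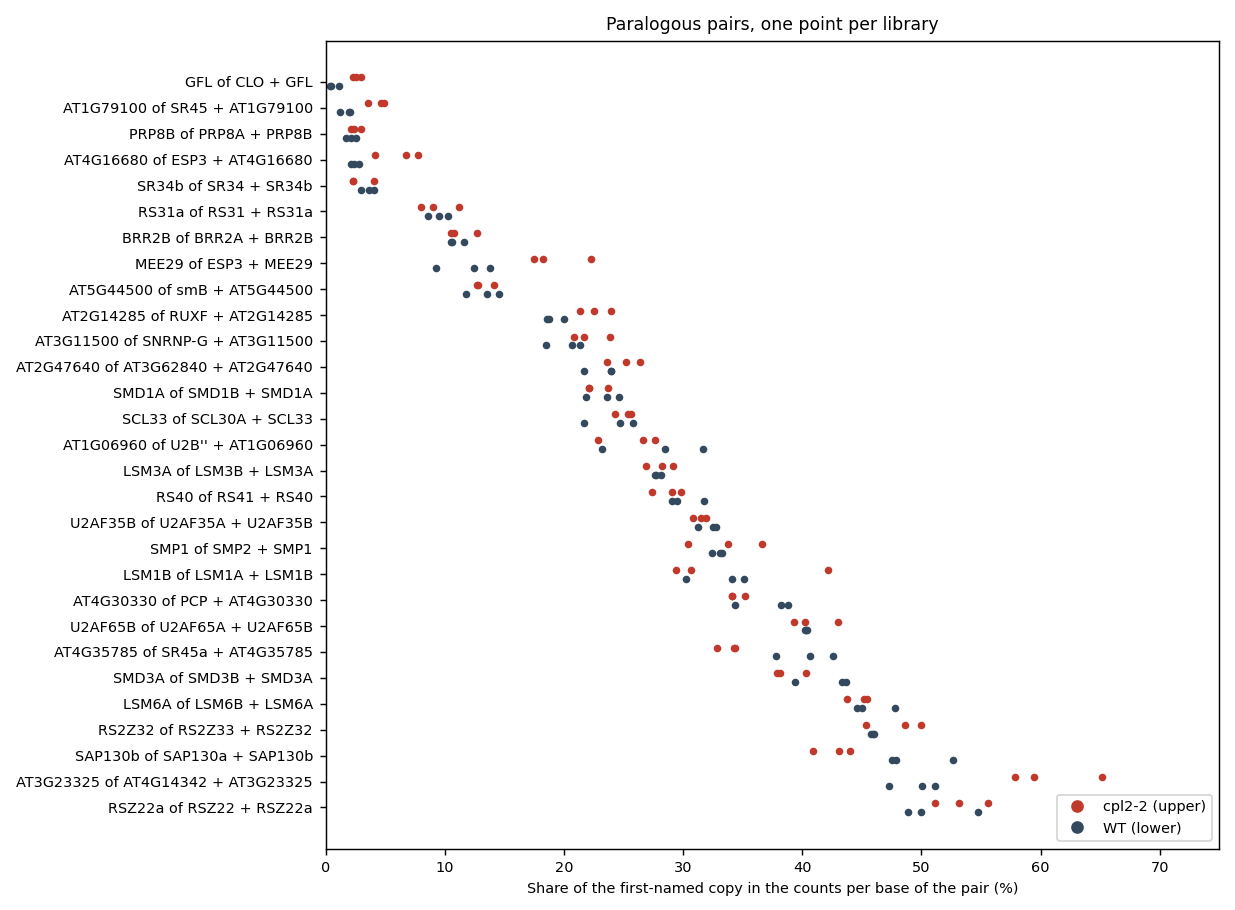
Share of the first-named gene in the summed counts per base of a paralogous pair, for 29 pairs, with a point per library, cpl2-2 above WT. The genotypes do not overlap in 8 pairs, among them GFL (2.26% to 2.94% in cpl2-2 and 0.329% to 1.11% in WT), MEE29 and AT4G16680 with a higher share in cpl2-2 and AT4G35785 with a lower one. GFL and AT4G16680 entered the test through their cpl2-2 libraries alone, so their shares support nothing about the group.

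Across all 29 paralogous pairs examined, the share of the first-named copy did not overlap between the genotypes in 8, beside 39.0% of single genes whose levels did not overlap. Besides GFL, AT3G23325, MEE29, AT4G16680 and the SAP130 pair, these were AT4G35785 beside SR45a (34.4%, 32.9% and 34.3% in cpl2-2, against 40.7%, 37.8% and 42.5% in WT), AT2G14285 beside RUXF, which encode Sm F proteins (24.0%, 21.4% and 22.6% in cpl2-2, against 18.6%, 20.0% and 18.7% in WT), and AT1G79100 beside SR45, which rests on 11 counts in cpl2-2 and 5 in WT. GFL and AT4G16680 entered the test through their cpl2-2 libraries alone, so their shares support nothing about the group. ESP3 is the partner of both MEE29 and AT4G16680, so those pairs are not independent. A two-sided exact permutation test of 3 libraries against 3 cannot give a p below 0.1, so none of the shares could pass 0.05. For the other 21 pairs, including those of SR34, RS41, SCL30A, U2AF35, U2AF65, PRP8 and BRR2, the libraries of the genotypes overlapped.

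Assembly and step factors, including the complex around CDC5, summed to 454, 427 and 441 CPM in cpl2-2, against 458, 455 and 466 CPM in WT, with 10 of 15 tested genes below 0. As a share of library counts their genotypes overlapped. CDC5 was at -0.09 (SE 0.06) and its partner MOS4 at -0.11 (SE 0.07). The 1 call of the class was AT3G05070, related to the human protein CCDC12, with 42.5, 39.3 and 39.7 CPM in cpl2-2, against 47.1, 43.0 and 47.8 CPM in WT (log2 fold change -0.18, SE 0.06, adjusted p = 0.029), and its genotypes were apart. That call was lost with library totals (adjusted p = 0.19) and without WT replicate 1 or 3 or cpl2-2 replicate 2 or 3 (0.095, 0.13, 0.087 and 0.083). Minor-spliceosome genes were low, with a median of 3.94 CPM per kb, and their errors were wide. U11/U12-31K averaged 4.31 ± 0.18 CPM in cpl2-2 and 4.44 ± 0.79 CPM in WT (-0.04, SE 0.19), and AT2G43370, related to a U11/U12 snRNP protein, 3.12 ± 0.36 CPM in cpl2-2 and 4.08 ± 0.98 CPM in WT (-0.39, SE 0.22).

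The description search also matched genes that are not spliceosomal, and 2 of the 27 calls are of that kind. AT3G10405 (chromosome 3, 3232457 to 3235289, minus strand) carries the description of U11/U12-31K, a gene that lies inside it on the opposite strand (3232608 to 3233690), while RefSeq names its product a vacuolar acid trehalase. It averaged 41.1 ± 0.89 CPM in cpl2-2 and 54.1 ± 3.61 CPM in WT (log2 fold change -0.40, SE 0.06, adjusted p = 1.8e-06). UPL3 is a ubiquitin ligase whose description holds a splicing factor domain label, as does that of BGAL14, which overlaps it on the opposite strand. UPL3 averaged 78.1 ± 1.74 CPM in cpl2-2 and 69.1 ± 0.66 CPM in WT (0.18, SE 0.05, adjusted p = 0.0064). Without these and the antisense, non-coding and pseudogene loci, 25 of 130 tested genes were called, 15 higher and 10 lower. A restriction by position left 84 tested genes that overlap no other annotated gene, of which 10 were called higher and 7 lower.

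Of the 28 genes that could not be tested, 14 had 0 counts in every library and 14 had few. None of the 28 held more than 15 counts over the cpl2-2 libraries or 16 over the WT libraries. Those at 0 were of the SF3 and U2AF class (6), the assembly factors (3), the U4/U6 and U5 proteins (3), the helicase AT5G14900 and the pseudogene locus AT2G14550. A count of 0 in a library allows up to 3 counts there. AT2G44195, similar to the human step factor CWC25, had 1, 0 and 12 counts in cpl2-2, against 0 in each WT library, so nearly all came from 1 library.

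As a whole the 165 genes took 0.441%, 0.435% and 0.434% of the library counts in cpl2-2, against 0.419%, 0.417% and 0.420% in WT. All cpl2-2 shares were higher, by 0.018 percentage points on average. The exact permutation test with 3 libraries a genotype cannot pass 0.05. The direction rests on the scale, since with TMM factors the summed level was 4306, 4264 and 4236 CPM in cpl2-2, against 4300.4, 4253 and 4316 CPM in WT, and the genotypes overlapped.

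**Figure D5:**
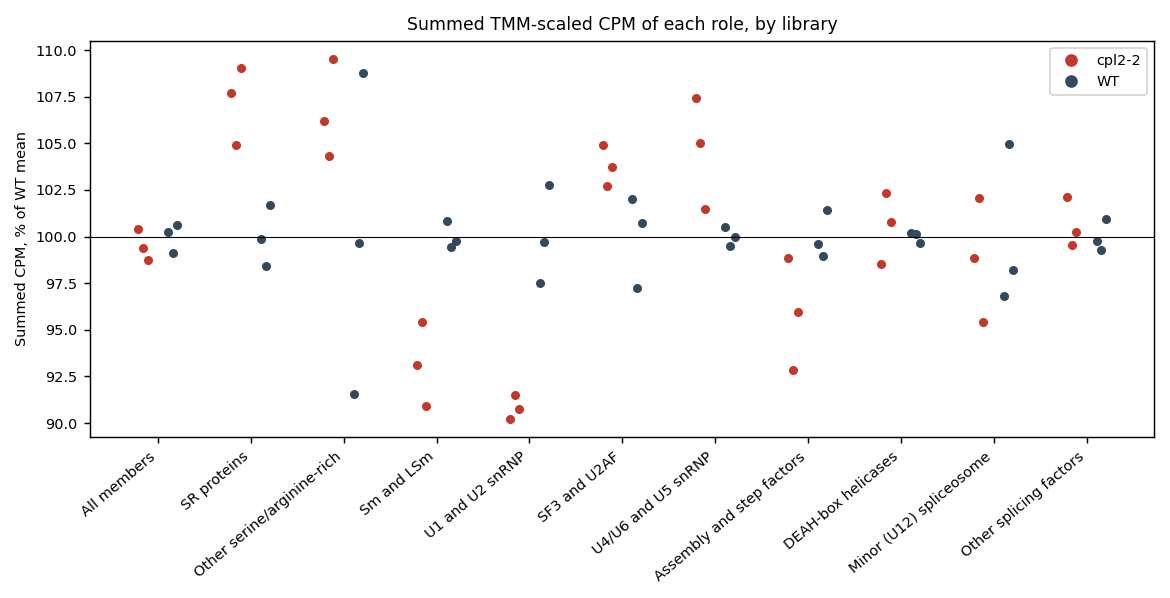
Summed TMM-scaled CPM of each role as a percentage of its WT mean, with a point per library and cpl2-2 left of WT; the axis does not start at 0. For all 165 genes the genotypes overlap, SR proteins and U4/U6 and U5 proteins lie above WT, and Sm and LSm proteins and U1 and U2 proteins below it.

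By role, the summed level of U4/U6 and U5 genes was 681, 666 and 643 CPM in cpl2-2, against 637, 631 and 634 CPM in WT, and that of U1 and U2 genes 193, 196 and 194 CPM in cpl2-2, against 209, 213 and 219.9 CPM in WT. In both the genotypes were apart, in opposite directions. SF3 and U2AF genes summed to 599.7, 587 and 593 CPM in cpl2-2, against 583, 556 and 576 CPM in WT, the lowest cpl2-2 library just above the highest WT library. The helicases (198, 206 and 203 CPM in cpl2-2, against 201, 201 and 200.4 CPM in WT) and the minor-spliceosome genes overlapped.

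Beyond the description search, 23 further genes of the spliceosome, its kinases and regulators were read from lists by locus, and 4 of them were called (17.4%, against 27.3% of all genes tested). The higher ones were PRP4KA and SRPK4, described above. The lower ones were the RNA-binding proteins GRP7 and GRP8, clock-regulated factors known to shape alternative splicing. GRP7 averaged 1374 ± 114 CPM in cpl2-2 and 1666 ± 68.8 CPM in WT (log2 fold change -0.28, SE 0.03, adjusted p = 1.2e-09). DESeq2 gave GRP7 a wider SE of 0.08 and a much weaker call (adjusted p = 0.0024). GRP8 averaged 139.7 ± 13.7 CPM in cpl2-2 and 159 ± 8.11 CPM in WT (-0.19, SE 0.05, adjusted p = 0.0015), a call that DESeq2 did not make (adjusted p = 0.13). Nonsense-mediated decay removes many misspliced SR transcripts, and its core factors UPF1, UPF2 and UPF3 were at -0.05 (SE 0.05), -0.09 (SE 0.09) and -0.07 (SE 0.08), none of them called.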

How the data were processed

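RNA-seq was made from 3 libraries of cpl2-2 and 3 of WT seedlings with a directional kit, per the labels' protocols. The deposited values are whole-number counts for each gene, summing to different totals and so read as not normalized. The submitters' processing notes name HISAT2 2.0.5 and TAIR10. The counting program and its strand setting: not given in the sources used here. Gene lengths are another column the authors deposited, of no other stated source. The members and gene lists were chosen with earlier results of these data known.

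Genes passing filterByExpr (19302) were normalized with TMM and tested with edgeR 4.0.16 (R 4.3.3), quasi-likelihood, genotype the only term; SE is the log2 fold change over the root of F. The same steps were tested on simulated data with known changes. CPM are counts over effective library totals. Alternatives were DESeq2 1.42.0, limma-voom (limma 3.58.1), RLE factors, library totals, no filter, a replicate block and leaving out each library; 2 narrower member sets were added after the data were seen. The settings the text counts are the 12 that leave the members as they are. Library totals of 18299294 to 21098728 bear on the precision, and p-values weigh the genotype difference against the spread between these libraries. Intervals are exact 95% binomial. By rule the text names CPL2, all SR genes, the 10 largest rises and 10 largest falls among other called members with at least 1 CPM and no overlap between genotypes, the 2 called members of smallest p in each role, and called SR-related, kinase and decay genes, of which some items are not reported here; other genes, 3 called members (AT4G16680, LSM7 and LSM3B) among them, were chosen after their values were seen. All 165 members and 37570 of 38192 genes matched RefSeq TAIR10.1 by locus tag, 37566 with the same start and end; symbols, coding sequences and windows are from it. No sample column was left unmapped.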

Additional observations from a re-analysis of the deposited data

How the results depend on the processing

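Of the 27 calls among these genes, 13 held in all 12 other settings, 7 higher and 6 lower. Among the 7 are GFL, which entered the test through its cpl2-2 libraries alone, and UPL3, which is not spliceosomal. Among the 6 is AT3G10405, which is not spliceosomal either. Over the 86 genes followed through these settings, no called gene changed direction. Leaving out 1 library gave 11 to 13 members called higher and 8 to 12 lower, 2 to 4 SR genes called higher and 0 lower, 1 to 2 other spliceosome genes called higher and 2 lower, 2347 to 2474 of all genes higher and 2177 to 2358 lower, a member median log2 fold change of -0.029 to 0.00056, and a difference in the members' share of counts of 0.0158 to 0.0195 percentage points. With library totals all genes called lower numbered 1666 (2560 with TMM), members called lower 7 (11), other spliceosome genes called higher 5 (2), and the member median was 0.057 (-0.011); this setting leaves out the TMM factors, which were above 1 in cpl2-2 and below it in WT. DESeq2 called 1 of the other spliceosome genes higher and 1 lower (2 and 2 with edgeR). Among members that overlap no other annotated gene, 10 were called higher and 7 lower, from fewer genes tested. Deviations of same-numbered libraries from their genotype means correlated at -0.012 to 0.013. These few correlations show no shared deviation, but they cannot exclude that the replicate numbers pair the libraries. With a replicate block 16 members were called higher and 12 lower, LSM8 among them (adjusted p = 0.045). No description named a pseudogene or transposable element, so the restriction planned on those words left all 165. The cause of the calls lost was not tested. The median SE of members was 0.08, and LSM8 at -0.21 (SE 0.08) missed the threshold (adjusted p = 0.051).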
